A study of Rattus norvegicus with 32 samples.

Results

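Heat shock proteins and their co-chaperones were read on expression arrays from rat nucleus accumbens, a ventral striatal region, taken 1 h after a single injection of methamphetamine (METH) or of saline. The genes were chosen by symbol: the Hsp and Dnaj families, Bag1 to Bag6, the cytosolic chaperonin subunits Cct2 to Cct8, the HSP90 co-chaperones Stip1, St13 and Ahsa1, and the heat shock factors Hsf1 and Hsf2. Hspa5 and Hsp90b1, chaperones of the endoplasmic reticulum, were left out, while other genes of that compartment, such as Dnajb11 and Dnajb14, were kept. The platform annotation gave 78 probes of 76 genes with such a symbol, among 22523 probes. Of these, 59 probes of 59 genes were detected (deposited detection p under 0.05) on 4 or more of the 9 arrays and were tested, among 9987 tested probes in all. Because detection on METH arrays alone could admit a probe, the number detected on fewer than 4 saline arrays was counted, and it was 6 (Bag2, Hspa4, Hspa12a, Hspa12b, Dnajc4 and Dnajc16). The other 53 were detected on all 9 arrays.

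The animals were male Sprague-Dawley rats, whose weight but not age is in the labels. The METH group received 20 mg/kg once and gave 5 arrays, and the saline group gave 4. The labels state 5 rats per group, but they do not tie an array to a rat, so p-values measure the spread between arrays. Slide 1 held saline arrays 1 and 2 and METH arrays 1 and 2, and slide 2 held saline arrays 3 and 4 and METH arrays 3, 4 and 5. METH array 2 had the highest mean deposited intensity (231.4, against 164.3 to 227.9 on the others), and METH array 5 the highest share of probes detected (47.3%, against 41.5 to 44.5%). METH is a psychostimulant that releases dopamine and, at high doses, raises body temperature in rats; no body temperature was among the labels used here.

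Molecular chaperones bind unfolded or newly made proteins. HSP70 proteins work in an ATP cycle in which J proteins (the Dnaj genes) deliver clients and start ATP hydrolysis, and nucleotide exchange factors such as the Bag proteins release the ADP. HSP90 takes clients on from HSP70 through adaptor proteins, small heat shock proteins hold aggregating proteins, and the chaperonins enclose them. After heat or other protein damage, heat shock factor 1 binds inverted GAA repeats in front of many of these genes and raises their transcription. In bulk tissue, fewer cells of a type and less RNA per cell cannot be told apart.

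Promoter sequences of the members that differed most between the groups are shown first, since inverted GAA repeats are known in front of many heat-inducible genes. They come from RefSeq (GRCr8, 5′ to 3′ on the gene's strand, 250 bases before to 50 after the start). Of the 6 members with the highest log2 fold change, 5 had an entry, and Dnajb4 is named only. Capitals mark every match to GAANNTTC or TTCNNGAA, the 2 arrangements of facing GAA units, each of which is its own reverse complement and so reads alike on both strands.
Hspb1: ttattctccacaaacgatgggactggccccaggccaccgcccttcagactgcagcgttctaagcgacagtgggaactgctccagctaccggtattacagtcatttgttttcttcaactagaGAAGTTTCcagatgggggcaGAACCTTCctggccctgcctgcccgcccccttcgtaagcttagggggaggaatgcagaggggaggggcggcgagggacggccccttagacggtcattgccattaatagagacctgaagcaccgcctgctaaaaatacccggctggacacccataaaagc
Dnajb1: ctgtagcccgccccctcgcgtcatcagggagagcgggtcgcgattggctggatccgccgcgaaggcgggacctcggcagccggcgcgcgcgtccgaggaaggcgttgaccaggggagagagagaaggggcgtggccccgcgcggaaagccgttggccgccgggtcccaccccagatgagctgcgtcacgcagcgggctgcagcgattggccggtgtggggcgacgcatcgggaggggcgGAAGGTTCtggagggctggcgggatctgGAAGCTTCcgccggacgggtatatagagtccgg
Dnajb5: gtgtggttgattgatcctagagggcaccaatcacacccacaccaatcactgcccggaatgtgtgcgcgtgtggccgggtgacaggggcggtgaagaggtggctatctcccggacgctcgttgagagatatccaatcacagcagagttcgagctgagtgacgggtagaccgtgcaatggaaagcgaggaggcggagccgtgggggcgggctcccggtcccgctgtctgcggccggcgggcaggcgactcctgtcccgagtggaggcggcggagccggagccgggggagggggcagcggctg
Bag3: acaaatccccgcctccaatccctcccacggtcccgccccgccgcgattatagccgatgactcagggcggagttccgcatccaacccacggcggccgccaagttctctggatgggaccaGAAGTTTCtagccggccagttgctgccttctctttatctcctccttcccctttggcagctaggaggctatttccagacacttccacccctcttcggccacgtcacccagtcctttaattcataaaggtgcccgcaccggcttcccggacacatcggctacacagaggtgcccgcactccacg
Dnaja1: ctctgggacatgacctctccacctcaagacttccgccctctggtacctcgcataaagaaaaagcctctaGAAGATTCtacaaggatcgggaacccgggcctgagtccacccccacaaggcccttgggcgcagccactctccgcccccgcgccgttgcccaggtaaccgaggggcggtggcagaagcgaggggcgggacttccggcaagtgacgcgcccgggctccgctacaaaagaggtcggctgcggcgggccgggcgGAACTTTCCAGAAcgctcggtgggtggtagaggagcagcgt
The Hspb1 window (chr12:26432252-26432551, minus strand) held 2 matches, which begin 129 and 109 bases before the start. The Dnajb1 window (chr19:41431092-41431391, minus strand) also held 2, one beginning 11 bases before and one 18 bases after the start. The Bag3 window (chr1:192533210-192533509, plus strand) held 1, beginning 132 bases before the start. The Dnaja1 window (chr5:60638154-60638453, plus strand) held 3, of which the last 2 overlap. The Dnajb5 window (chr5:61972456-61972755, plus strand) held 0. Over all members, 51 of 59 had an entry and 18 of those (35.3%) held a match, against 4233 of 27457 promoters in the table (15.4%). GAANNTTC alone was in 8.3% of all promoters and TTCNNGAA alone in 8.5%. A match is a description of the letters, and no binding was measured.

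At 1 h, Dnajb5 rose about 2-fold on METH arrays, and it was the only one of the 59 members to pass an adjusted p of 0.05. Dnajb1 differed by a similar amount and missed the threshold (adjusted p = 0.0583), and Dnajb4, Dnaja1, Bag3 and Hspb1 were higher on average without passing. Most other members lay within 0.5 of the saline level on the log2 scale, as most probes did. The test was limma with an intensity trend and Benjamini-Hochberg adjustment over the 9987 probes, two-sided. With it 52 probes of all tested passed (0.521%), of which 49 rose and 3 fell, so 1 of 59 members (1.69%) is set against that share. The count of all probes rests partly on METH array 2, since it was 250 (2.5%) without that array, when 3 members passed (Dnajb1, Dnajb5 and Hspa2).

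At an unadjusted p under 0.05 by the same limma fit, 9 members (15.3%) stood against 1097 of all probes (11%). Of the 9, 8 were higher on METH (13.6% of members against 5.33% of all probes) and 1, Bag5, was lower (1.69% against 5.66%). Counting without a model, 6 members had all 5 METH arrays above all 4 saline arrays: Dnajb5, Dnajb1, Dnajb4, Dnaja1, Dnaja2 and Bag3. That is 10.2% of members against 1.96% of all probes. For the opposite order, all METH arrays below all saline arrays, the count was 1 member, Bag5, against 2.29% of all probes. The log2 fold change was above 0 for 37 of 59 members (62.7%) and for 45.7% of all probes. Its median was 0.0926 over the members and -0.0228 over all probes, and 53 of 59 members (89.8%) lay within 0.5 of 0, against 94.7% of all probes.

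**Figure D1:**
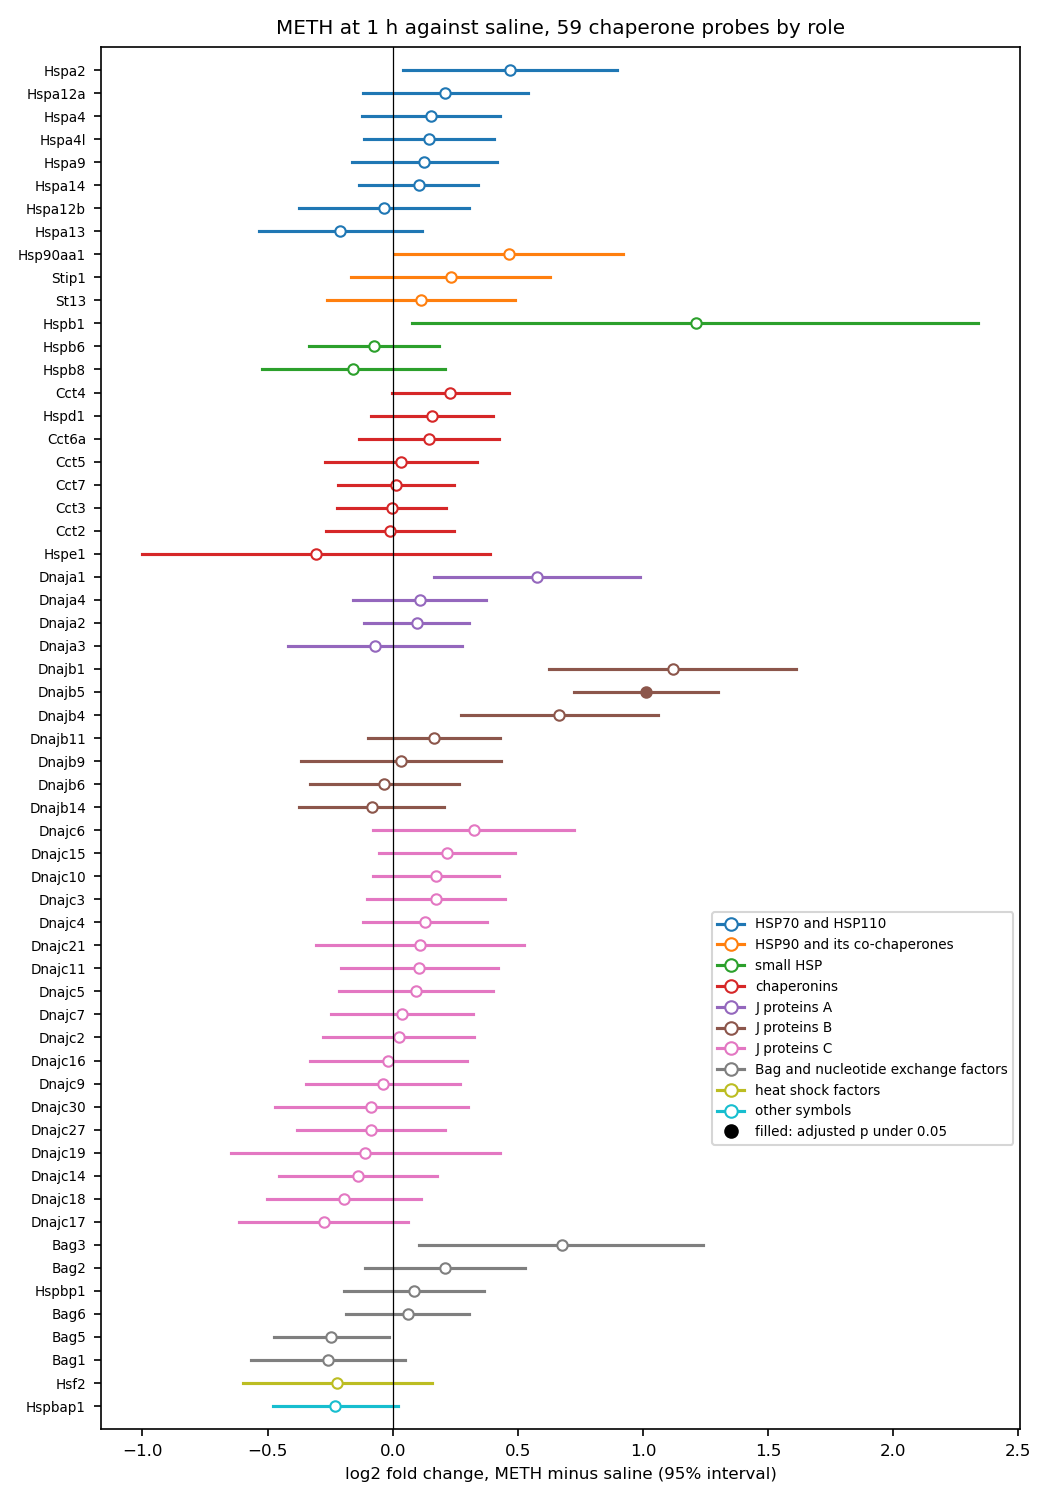
Log2 fold change of METH against saline at 1 h (x axis, points) with its 95% interval (lines) for the 59 chaperone probes, grouped by role in colour. The filled point is Dnajb5, the only member with an adjusted p under 0.05, and the chaperonins and most type C J proteins cluster around 0.

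Of the 9 members at an unadjusted p under 0.05, 4 were J proteins of type A or B. The type B group had 7 of 11 matching probes tested, with a median log2 fold change of 0.165. Dnajb5, a J protein of the HSP40 family, had normalized log2 intensities of 6.97, 6.95, 6.58 and 6.69 on saline arrays 1 to 4 and of 7.86, 7.77, 8.00, 7.67 and 7.75 on METH arrays 1 to 5. The groups did not overlap, and all 5 METH arrays lay within a narrow band. The log2 fold change was 1.01 ± 0.132 (SE; 95% interval 0.724 to 1.30), a fold of 2.01, with an adjusted p of 0.00225 by limma. By p-value the probe ranked 21 of 9987. The log2 fold change was 0.854 within slide 1 and 1.17 within slide 2. Each slide holds few arrays, and the probe passed within neither alone (adjusted p = 0.172 and 0.103, limma). Leaving out any 1 array gave between 0.938 and 1.07, and the adjusted p by limma stayed between 0.00281 and 0.0146.

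Dnajb1, the main stress-inducible partner of cytosolic HSP70, read 9.99, 9.70, 9.98 and 10.17 on the saline arrays and 11.28, 11.87, 10.53, 10.91 and 10.81 on the METH arrays, in log2 intensity. All METH arrays lay above all saline arrays, and the 2 METH arrays of slide 1 were the highest. The log2 fold change was 1.12 ± 0.228 (SE; 95% interval 0.624 to 1.61), with an adjusted p of 0.0583 by limma. Its call turned on single arrays and settings: it passed without METH array 2 (0.921, adjusted p = 0.0147, limma), without METH array 3 (1.26, adjusted p = 0.0303) and without METH array 5 (1.19, adjusted p = 0.043). With slide as a block it passed too (1.15, adjusted p = 0.029, limma), as did 62 of all probes (0.621%).

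Dnajb4, a J protein closely related to Dnajb1, read 7.60, 7.23, 7.23 and 7.25 on the saline arrays and 7.95, 8.59, 7.74, 7.68 and 8.01 on the METH arrays. The groups did not overlap, and METH array 2 again read highest. On average METH arrays were higher by 0.666 ± 0.182 (SE) on the log2 scale, with an adjusted p of 0.185 by limma. The other 4 type B members tested ran from -0.0837 (Dnajb14, anchored in the endoplasmic reticulum membrane) to 0.165 (Dnajb11, a co-chaperone of Hspa5), with Dnajb6, which holds back amyloid aggregation, at -0.0338.

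Among type A J proteins, all 4 were tested, with a median of 0.102. Dnaja1, a farnesylated cytosolic co-chaperone of HSP70, read 11.13, 10.63, 10.94 and 10.71 on the saline arrays and 11.54, 12.05, 11.22, 11.18 and 11.14 on the METH arrays. The lowest METH array stood only just above the highest saline array. This gave a log2 fold change of 0.575 ± 0.190 (SE), with an adjusted p of 0.271 by limma. Dnaja2, its close relative, also did not overlap between groups, but over a far smaller distance: 11.25, 11.27, 11.30 and 11.30 on saline and 11.33, 11.41, 11.39, 11.34 and 11.40 on METH arrays. Its log2 fold change was 0.0956 ± 0.0964 (SE; adjusted p = 0.746, limma), and limma's SE, which draws on the spread of other probes of like intensity, was larger than the SDs of 0.0252 (saline) and 0.0385 (METH). Dnaja4 was at 0.108 and Dnaja3, the mitochondrial member, at -0.0709.

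The type C J proteins, a mixed group whose members serve single client pathways, had 18 of 23 matching probes tested. Their median was 0.0308 and none had an unadjusted p under 0.05 by limma. The highest was Dnajc6 (auxilin, which uncoats clathrin vesicles in neurons) at 0.324 ± 0.185 (SE), and the lowest was Dnajc17 at -0.276 ± 0.155. Dnajc5, the cysteine string protein of synaptic vesicles, was at 0.0926. Dnajc19, a J protein of the mitochondrial inner membrane, read 7.08 on METH array 5 and between 7.89 and 8.39 on the other 8 arrays.

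**Figure D2:**
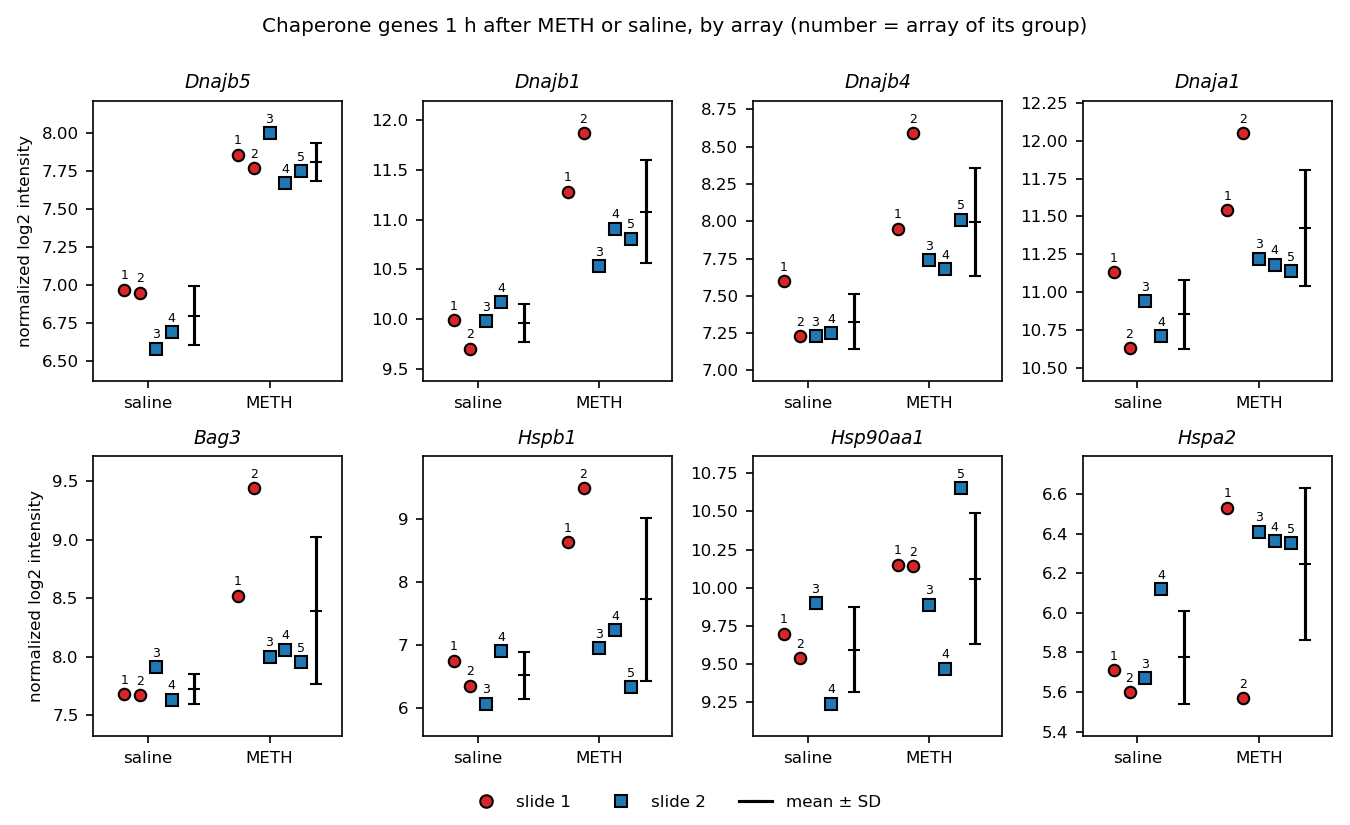
Normalized log2 intensity (y axis, own scale per gene) of 8 chaperone genes on the 4 saline and 5 METH arrays at 1 h, with circles for slide 1, squares for slide 2, array numbers above the points and mean ± SD beside each group. Dnajb5 sits in a narrow METH band from 7.67 to 8.00, while Hspb1 and Bag3 are far higher on METH arrays 1 and 2 than on arrays 3 to 5.

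In the Bag family and nucleotide exchange factors all 6 probes were tested, with a median of 0.0723. Bag3, which links HSP70 to small heat shock proteins and to selective autophagy, read 7.68, 7.67, 7.91 and 7.63 on the saline arrays and 8.52, 9.44, 8.00, 8.06 and 7.95 on the METH arrays. Every METH array lay above every saline array, yet METH arrays 3 to 5 did so by little and METH arrays 1 and 2 by far more. The log2 fold change was 0.675 ± 0.263 (SE; 95% interval 0.104 to 1.24), with an adjusted p of 0.369 by limma, and it was 0.413 without METH array 2 (adjusted p = 0.215, limma). Bag5, which binds HSP70 and is known to inhibit parkin, was lower on METH. It read 9.05, 8.82, 8.87 and 8.90 on saline and 8.56, 8.78, 8.60, 8.70 and 8.70 on METH arrays. Its log2 fold change was -0.245 ± 0.107 (SE; adjusted p = 0.428, limma), and in unscaled intensities its sign turned (0.01). Bag1, at -0.259 ± 0.142 (SE), was the lowest of the group.

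Of the small heat shock proteins, 3 of 7 matching probes were tested. Hspb1 (HSP27), a stress-inducible holdase that also binds actin, had the highest log2 fold change of all members, 1.21 ± 0.520 (SE; 95% interval 0.0774 to 2.34), and also the widest interval. It read 6.75, 6.36, 6.07 and 6.90 on the saline arrays and 8.63, 9.48, 6.95, 7.24 and 6.33 on the METH arrays. METH array 5 fell inside the saline range, whereas METH arrays 1 and 2 lay far above it. The adjusted p was 0.426 by limma, and the log2 fold change was 0.769 without METH array 2. The range over METH arrays, 3.15 on the log2 scale, ranked 23 of the 9987 probes. Hspb6 and Hspb8, the partner of Bag3 in selective autophagy, were at -0.0743 and -0.158.

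Among HSP70 and HSP110 genes 8 of 10 matching probes were tested, with a median of 0.136. The highest was Hspa2, a constitutive HSP70 known from the testis and also made in brain. It read 5.71, 5.60, 5.67 and 6.12 on the saline arrays and 6.53, 5.57, 6.41, 6.36 and 6.35 on the METH arrays. METH array 2, on which the stress-inducible members above read highest, gave the lowest Hspa2 value of all 9 arrays. Its log2 fold change was 0.468 ± 0.197 (SE; adjusted p = 0.412, limma), and without METH array 2 it was 0.638 and passed (adjusted p = 0.0432, limma). Hspa9 (mortalin, the mitochondrial HSP70) was at 0.126, Hspa4, a nucleotide exchange factor of the HSP110 kind, at 0.153, and Hspa13 was lowest at -0.209.

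The inducible HSP70 gene could not be followed. Hspa1b had 1 probe, whose deposited intensities were -3.9, 5.4, 6.0 and 4.7 on saline and 4.5, 23.0, 11.6, 14.5 and 4.9 on METH arrays, and it was detected on 0 of 9 arrays. Its smallest detection p, 0.092 (deposited), was on METH array 2. Hspa1a, Hspa8 and Hsf1 were not analysed here. Hsph1, Ahsa1 and both probes of Hsp90ab1 were also detected on 0 of 9 arrays, and 17 of the 19 untested probes were in all. The other two were Hspb9, detected on METH array 1 and saline array 2, and Dnajc25, detected on METH array 5.

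HSP90 and its co-chaperones had 3 of 6 matching probes tested, with a median of 0.231. Hsp90aa1, the inducible cytosolic HSP90, read 9.70, 9.54, 9.90 and 9.24 on saline and 10.15, 10.14, 9.89, 9.47 and 10.65 on METH arrays. The groups overlapped, and its highest value was on METH array 5, unlike Hspb1, Bag3 or Dnaja1. This gave a log2 fold change of 0.465 ± 0.209 (SE; adjusted p = 0.446, limma). Stip1, the adaptor that joins HSP70 to HSP90, was at 0.231 ± 0.183 (SE; 0.124 without METH array 2, 0.143 without saline array 4 and 0.362 without METH array 5), and St13, an HSP70-interacting protein, at 0.114 ± 0.173.

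Of the chaperonins, 8 of 9 matching probes were tested. Their median log2 fold change was 0.0241, and none had an unadjusted p under 0.05 by limma. Cct4, a subunit of the cytosolic ring that folds actin and tubulin, was the highest at 0.230 ± 0.107 (SE; adjusted p = 0.464, limma). Hspd1 and Hspe1, which form the mitochondrial chaperonin and its lid and are known to lie head to head with a shared promoter, differed in sign: Hspd1 was at 0.158 ± 0.112 and Hspe1 at -0.307 ± 0.321 (SE), neither past the threshold. The Hspe1 value rests on single arrays, being -0.0405 without METH array 5, -0.493 without METH array 2 and -0.543 without saline array 4. Both of their promoter windows held 3 motif matches. Hspe1 read 9.13, 9.04, 9.08 and 8.14 on saline and 8.92, 9.29, 8.70, 8.33 and 7.48 on METH arrays, with its lowest values on saline array 4 and METH arrays 4 and 5. The median of 55 oxidative phosphorylation genes was also lowest on METH array 5, at -0.662 from the saline mean, and the part of this in the Hspe1 and Dnajc19 values was not tested. Hsf2, the only heat shock factor tested, was at -0.221 ± 0.174 (SE; adjusted p = 0.677, limma), with -0.141 when METH array 4 and -0.352 when METH array 5 was left out.

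The members with and without a motif match were compared as a description. The 18 with a match had a median log2 fold change of 0.145, from -0.307 (Hspe1) to 1.21 (Hspb1), and 12 of them were above 0. The 33 without a match had a median of 0.0141, from -0.276 (Dnajc17) to 1.01 (Dnajb5), and 17 were above 0. The only member that passed the test, Dnajb5, is thus in the group without a match in this window.

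The METH difference of several members was larger on slide 1 than on slide 2. Hspb1 differed by 2.50 on the log2 scale within slide 1 (5.66-fold) and by 0.357 within slide 2 (1.28-fold). Dnajb1 differed by 1.73 and 0.671, Bag3 by 1.31 and 0.235, and Dnaja1 by 0.914 and 0.359. This was not general to the members, whose median was 0.081 within slide 1 and 0.102 within slide 2. Nor was it particular to chaperones. Each tested gene of the immediate early list described below also differed more on slide 1, from Fos (4.51 and 3.34) to Nr4a3 (2.72 and 2.67). Within slide 1 alone, Dnajb1 and Hspb1 passed (adjusted p = 0.00315 and 0.00288, limma), among 48 of all probes (0.481%). Within slide 2 alone no member passed by limma, among 16 of all probes (0.16%), and 4 members had an unadjusted p under 0.05, against 8.71% of all probes. The difference between slides was then tested itself, with an interaction term over all 9 arrays. No member and no other probe passed, the smallest adjusted p of any probe being 0.133 (limma). The difference of slide 2 minus slide 1 was -2.14 ± 0.509 (SE) for Hspb1, -1.07 ± 0.357 for Bag3, -1.06 ± 0.311 for Dnajb1 and 0.726 ± 0.311 for Dnajc30. These 4 members (against 2.92% of all probes) had an unadjusted limma p under 0.05 and an adjusted one of 0.9995.

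**Figure D3:**
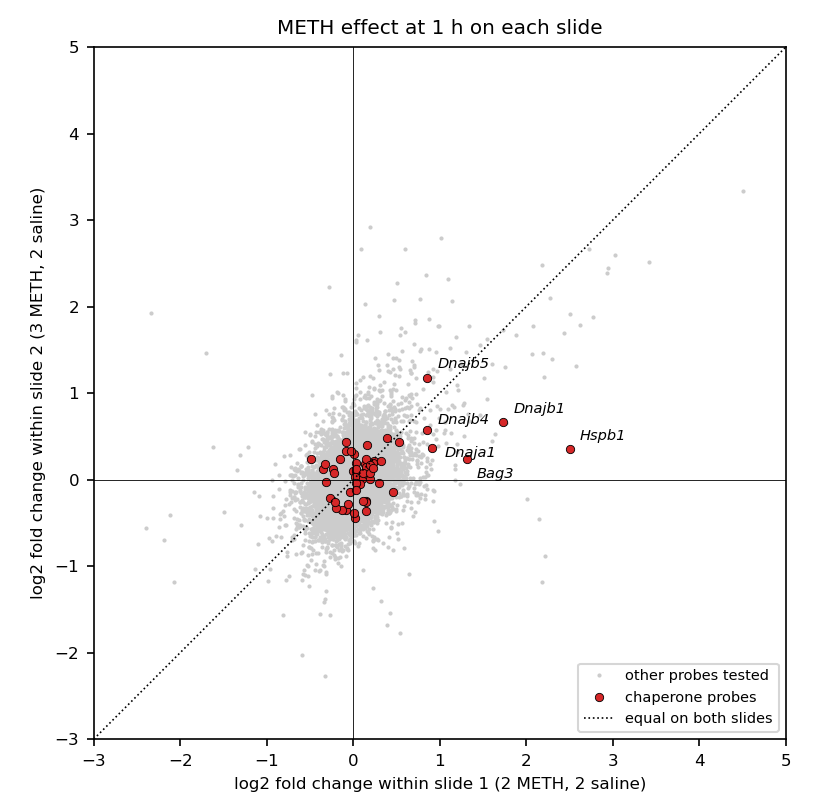
Log2 fold change of METH against saline within slide 1 (x axis) and within slide 2 (y axis) for 59 chaperone probes (red) and the other tested probes (grey), with a dotted line where both are equal. Hspb1, Bag3, Dnajb1 and Dnaja1 lie below the line and Dnajb5 above it.

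Over single arrays, 7 members read higher on both METH arrays of slide 1 than on every other array, which is 11.9% of members against 3.49% of all probes. They were Bag3, Dnajb1, Dnaja1, Hspb1, St13, Hspa14 and Cct2, the last 3 with log2 fold changes of 0.114 or less. The pattern counted is the one already seen above in Bag3, Dnajb1, Dnaja1 and Hspb1, and no other pair of arrays is counted here. The count therefore describes these values and is no separate support for a slide difference. More than 0.5 above the saline mean were 8 members on METH array 1, 9 on array 2, 5 on array 3, 4 on array 4 and 7 on array 5. The same measure over all probes took in 5.86%, 4.52%, 6.82%, 5.52% and 15.9% of probes, so the 7 members of array 5 (11.9%) were below that array's own background. The median deviation of the 59 members was small throughout, from 0.046 to 0.12 on METH and from -0.0181 to 0.043 on saline arrays.

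**Figure D4:**
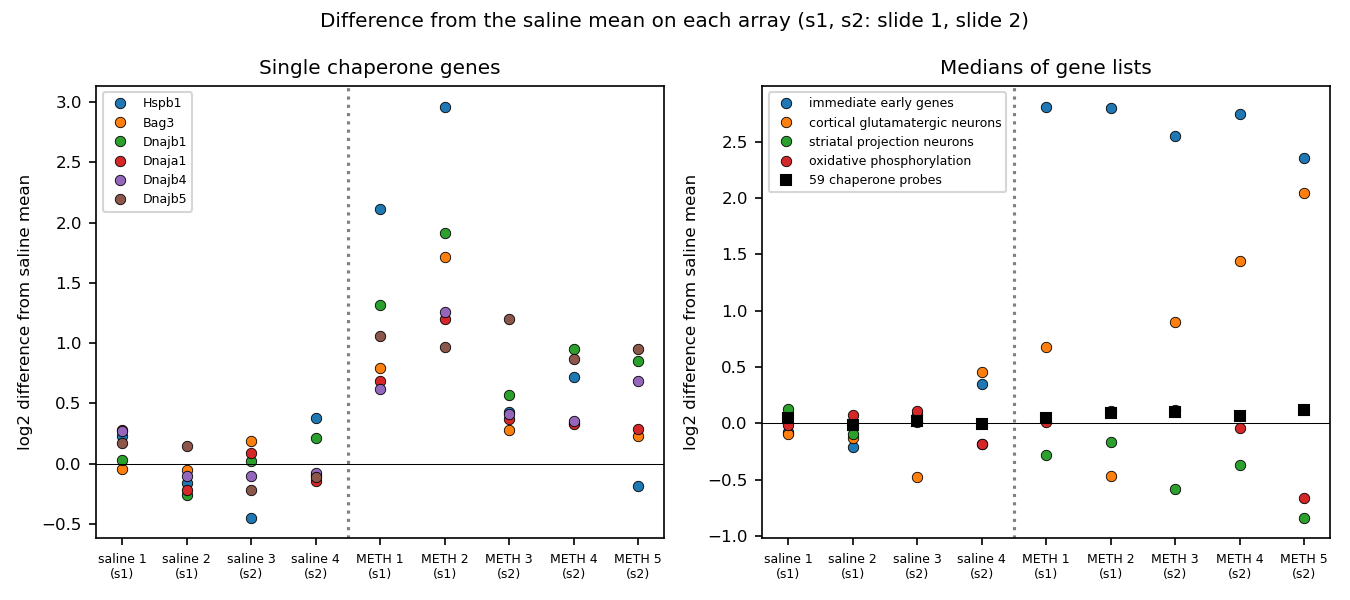
Log2 difference from the saline mean on each of the 9 arrays (x axis, with its slide) for 6 chaperone genes (left) and for the medians of 4 gene lists and of the 59 chaperone probes (right). Hspb1, Bag3, Dnajb1, Dnaja1 and Dnajb4 peak on METH array 2, where the cortical marker median is -0.466, while immediate early genes are at 2.35 or more on every METH array.

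Gene lists that check the labels and the tissue were read on the same arrays. All 8 immediate early genes tested, of 9 listed, rose (Fos, Arc, Egr1 and their like, which neurons switch on within minutes of activity), and their median lay between 2.35 and 2.81 on every METH array. On METH arrays 3 to 5 alone it was 2.35 to 2.74, against -0.208 to 0.352 on the saline arrays. Of 19 markers of striatal projection neurons 16 were tested, and 15 of these were lower on METH, with a median of -0.451 and none past the threshold. Of 16 markers of cortical glutamatergic neurons 7 were tested, 6 were higher and none passed, with a median of 1.02. Their median on METH arrays 1 to 5 was 0.68, -0.466, 0.903, 1.44 and 2.04, against -0.477 to 0.454 on saline arrays. The summed unscaled intensity of the 7 tested was 6081 to 9878 on saline and 9905 to 13624 on METH arrays. This sum rests mostly on the brightest probes, Nrgn and Lamp5, with log2 fold changes of 0.484 and -0.353. Mean deposited intensity also differed, at 164.3 to 187.8 on saline and 187.9 to 231.4 on METH arrays. The sum therefore cannot show more cortical tissue on each METH array. On METH array 2, Slc17a7 read 4.71 and Neurod6 4.75 (log2), near their lowest saline values of 4.71 and 4.66. None of the 11 with a probe was undetected on all arrays.

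Among METH arrays the cortical marker median was lowest on array 2, where Hspb1, Bag3, Dnajb1, Dnaja1 and Dnajb4 were highest and Hspa2 was lowest. It was highest on array 5, where Hsp90aa1 and the median deviation of the 59 members (0.12) were highest. With that median as a covariate in the limma fit, 6 members passed: Dnajb5, Dnajb1 (1.47, adjusted p = 0.00394), Bag3 (1.24, adjusted p = 0.00311), Dnaja1 (0.932, adjusted p = 0.00798), Hspb1 (2.22, adjusted p = 0.023) and Dnajb4 (0.906, adjusted p = 0.0475). Over all probes 77 then passed (0.771%). Hspa2 went down to 0.149 (adjusted p = 0.846, limma) under the covariate, and Hspe1 changed sign to 0.415. Of the vessel wall markers 5 were tested, and their median was -0.307, with Sox18 falling and the summed intensity at 1359 to 1468 on saline and 1246 to 1820 on METH arrays. The choroid plexus markers Aqp1, Folr1 and Kl were detected on 0 arrays. Of the 5 listed only Otx2 was tested, with an intensity of 16 to 36 on saline and 3 to 100 on METH arrays. On the log2 scale Otx2 was 1.01 above the saline mean on METH array 2. It was between -0.791 and -0.568 from that mean on the other METH arrays. No marker tested for astrocytes, oligodendrocytes or microglia rose or fell past the threshold. The cortical markers themselves had a median log2 fold change of 1.02 between the groups. The fit with their median as a covariate therefore cannot separate cell makeup from METH. The part of cell makeup in the chaperone values was not tested.

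Other chaperone and protein quality genes outside the rule were listed for comparison, and 24 of 33 had a tested probe. None rose or fell past the threshold, 13 were higher and 11 lower, and their median was 0.0111. Chordc1, a zinc-binding partner of HSP90 that is itself heat-inducible, was the highest. It read 8.27, 8.18, 8.08 and 8.06 on saline and 8.97, 9.37, 8.58, 8.50 and 8.84 on METH arrays, without overlap and again highest on METH array 2. Its log2 fold change was 0.709 ± 0.167 (SE; adjusted p = 0.121, limma). Hspa5 (BiP, the HSP70 of the endoplasmic reticulum) also did not overlap between groups, at 0.390 (adjusted p = 0.244, limma), and its difference was alike on both slides (0.400 and 0.401). Hmox1, heme oxygenase 1, was at 0.567 (adjusted p = 0.47, limma), with 6.88, 7.45, 6.70, 6.15 and 6.07 on METH arrays, the highest on arrays 1 and 2. Stub1, a ubiquitin ligase that works with HSP70, was the lowest at -0.229.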

How the data were processed

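Probe intensities and detection p-values of 9 arrays at 1 h were used (5 METH, 4 saline; 32 arrays in the series). The deposited intensities were made with BeadStudio, per the submitters' processing notes, version not given in the sources used here; values below 0 show that they were background-subtracted. The detection p-values were deposited by the authors beside them. The 46 per-sample columns of the later run were not used, because their rows do not match the probe IDs, nor were the times they hold. Mean intensity per array was 164.3 to 231.4, with 41.5 to 47.3% of probes detected. The rank correlation between arrays was 0.917 to 0.977, with 0 identical pairs. The number of arrays limits precision: the median 95% half-width was 0.307 (log2) over members.

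Here neqc in limma 3.58.1 (R 4.3.3) corrected the background, added an offset of 16, which understates fold changes of dim probes, took log2 and quantile-normalized. The test was lmFit and eBayes with an intensity trend over probes with detection p under 0.05 on 4 or more arrays. Levels are not compared between probes. The platform annotation, which can be old, names 1 gene for 13793 probes and several for 0. Named in full were members past the threshold, the 10 with the smallest p and 15 canonical genes. Members and lists were chosen with earlier results of these data known. Marker lists were cortical and striatal neurons, astrocytes, oligodendrocytes, microglia, vessel wall, choroid plexus, blood, immediate early genes and oxidative phosphorylation. Alternatives (up to 20 per result, 6 for the interaction) changed background, scaling, filter, trend, weights, blocks, slides, a marker covariate and single arrays. The test was checked on simulated data.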

Additional observations from a re-analysis of the deposited data

Results flagged for a closer look

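A screen covered the tested genes among those named in full, and the median deviation of the members. It sought a single array that stood apart from its saline or METH group by Dixon's criterion. Of 30 groups screened 4 had one, and chance alone picks about 1 group in 20. Dnajb4 read 7.60 on saline array 1, and the next saline array read 7.25. Bag3 read 7.91 on saline array 3, and the next read 7.68. Hspa2 read 5.57 on METH array 2, below the next METH array at 6.35. Hspe1 read 8.14 on saline array 4, below the next saline array at 9.04. The adjusted p of Hspa2 passes the limma threshold when METH array 2 is left out (log2 fold change 0.638, adjusted p = 0.0432).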

How the results depend on the processing

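Dnajb5 passed in the limma fit under every alternative except the fits within 1 slide. The count of members past the threshold, 1, was 3 in unscaled intensities, 2 with array weights, 2 with slide as a block (62 of all probes), 2 within slide 1 (48 of all probes), 0 within slide 2 (where 4 had an unadjusted p under 0.05, limma), 6 with the cortical covariate, and 1 to 3 with 1 array left out. The count over all probes, 52, was 225 in unscaled intensities, 32 with the stricter filter (detection p under 0.01 on all 9 arrays), 251 with array weights (159 rose, 92 fell), 16 within slide 2, and 31 to 250 with 1 array left out. The member median, 0.0926, was 0.343 in unscaled intensities, where the median of all probes was 0.23, and 0.0337 with no detection filter; with 1 array left out it ran from 0.0643 to 0.0934. Signs turned for Bag5 (0.01) and Hsf2 (0.0293) in unscaled intensities, and for Hspe1 within slide 1 (0.0153) and with the cortical covariate (0.415). The cause of these changes was not tested. The stricter filter uses fewer probes, and the single slides use fewer arrays. The interaction of slide and METH called 0 members in all 6 alternatives. Among the single genes described, 258 results stayed on their side of the threshold, 15 came to pass, 2 no longer passed (Dnajb5 within each slide) and 4 changed sign; Hspa2 was not tested under the stricter filter. With replicate number as a block, 82 probes and 1 member passed; deviations of same-numbered arrays correlated at 0.0721, 0.0953, 0.0801 and 0.247, not every array correlated best with its own number, and the labels do not say that numbers pair arrays. Expression of probes near background is limited by signal: 19 matching probes could not be tested.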

Other observations

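Of the blood markers 2 were tested, both lower on METH, with a median of -0.558 and a summed intensity of 3761 to 8793 on saline and 1893 to 9119 on METH arrays. On METH array 5 their median was -1.92 from the saline mean.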
